A study of Arabidopsis thaliana with 51 samples.

Results

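Small heat shock proteins are chaperones that bind unfolding proteins and hold them until larger, ATP-driven chaperones of the HSP70 and HSP100 families refold them. In plants the genes are known for low expression in unstressed vegetative tissue, strong induction by heat under heat shock transcription factors, and, for several members, expression in developing seeds and in pollen. The genes described here are AT1G53540, which encodes a class I small heat shock protein of the cytosol, and ATHSP22.0 (locus AT4G10250), which encodes a small heat shock protein of the endoplasmic reticulum. They were chosen as every probe that the array's gene table assigns to either gene. This gave 3 probes of 2 genes, out of 1784 named probes for 1748 genes and 27600 probes in all. AT1G53540 had 1 probe (3234491). ATHSP22.0 had 2, called here its first probe (3236259) and its second probe (3243711).

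The samples were organs of Arabidopsis thaliana, thale cress, measured on 51 two-colour arrays. On 45 of them organ total RNA was hybridised together with RNA from a cell culture, the common reference of 17 organ groups. Hypocotyls and roots, each grown in light and in the dark, had 2 arrays per group, as did sepal, light cotyledon and the pistil labelled 1DBP. The 1DPP pistil had 4 arrays. The other groups had 3 each: stem, rosette and cauline leaf, petal and stamen, the 3DPP and 8DPP siliques, dark cotyledon and germinating seed. A further 6 arrays, 2 each for cotyledon, hypocotyl and root, set light RNA directly against dark RNA. The labels give no genotype, plant age, heat treatment or growth temperature, do not spell out the stage codes, and do not say that the arrays of a group came from separate plants, so p-values measure the spread between arrays, which may be technical.

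Each value is a log2 ratio with the array's median set at 0, so a value of -1 is a ratio of 1 to 2 relative to the median probe. A probe was called where limma's moderated test gave an adjusted p under 0.05 and the difference was at least 2-fold. Reading the ratios as organ over cultured cells is likely, not known. A ratio to a common reference cannot tell a low organ from a high reference, and in whole organs fewer cells of a type and less RNA per cell cannot be told apart. The organ was in channel 1 for rosette leaf, cauline leaf and stem and on light root array p1, and in channel 2 on the other reference arrays, so dye and organ cannot be told apart between those sets. An array held 22773 to 26657 values, apart from the light hypocotyl arrays, with 19267 and 19326, and the third 8DPP silique array, with 7410. Of 8 organ marker genes, the pollen genes VGD1, ACT12 and TUA1 were highest in stamens, the root peroxidase genes AT4G30170 and AT5G17820 in light roots, INO of the ovule in 1DBP pistils, BAN of the seed coat in 3DPP siliques and the chlorophyll-binding protein gene LHB1B2 in rosette leaves. The markers were chosen after their values were seen, so their places are descriptions and do not test the labels. INO had no value in 8DPP siliques and AT4G30170 none in light hypocotyls, and BAN had 1 value in 1DPP pistils.

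Both genes were far lower in every organ than in cultured cells. AT1G53540 lay between 8.38-fold lower, in light hypocotyls, and 331-fold lower, in 3DPP siliques. ATHSP22.0 lay between 15.8-fold lower, in stem, and 326-fold lower, in light roots, by its first probe, and between 14.2-fold lower, in stem, and 186-fold lower, in rosette leaves, by its second. All 3 probes were called lower in 17 of 17 groups, where the largest adjusted p was 4.3e-05 for AT1G53540, 1.5e-05 for the first ATHSP22.0 probe and 1.1e-07 for the second. In the background, 21.1% of all tests over the 17 groups were called lower and 21.3% higher, and 7.50% of the 11011 probes tested in every group were called lower in all of them. The 17 groups share the reference, so they are not separate observations of it.

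Single arrays did the same. None of the 44 values of AT1G53540, the 44 of the first ATHSP22.0 probe or the 45 of the second lay above 0. The highest values were -3.06, -2.16 and -1.95, and the lowest -8.75, -9.19 and -8.17. Averaged over the 17 groups, the probes ranked 37th, 35th and 51st from the lowest among the 11011 probes with a mean in every group. Within a single group, between 0.0479% and 2.40% of the probes tested lay at or below AT1G53540, and for ATHSP22.0 this share ran from 0.0239% to 1.62% by the first probe and from 0.0733% to 1.72% by the second.

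The share of all probes called lower was 18.0% in rosette leaf, 16.4% in cauline leaf and 15.7% in stem. It was 20.9% in dark and 22.1% in light cotyledon, 26.9% in dark and 20.7% in light hypocotyl, and 19.6% in dark and 14.5% in light root. In flowers it was 28.8% in sepal, 22.8% in petal and 25.1% in stamen. It was 18.9% and 20.1% in the 1DBP and 1DPP pistils, 19.5% and 19.7% in the 3DPP and 8DPP siliques, and 29.4% in germinating seed.

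At such low ratios the deposited numbers are coarse. The deposited ratios with a log2 below -1 are whole numbers of thousandths, within 0.00026 of a thousandth. AT1G53540 stood at 10 thousandths or fewer in 17 values and reached 3 thousandths. The first ATHSP22.0 probe did so in 18 values and reached 2 thousandths, and the second in 10 values and reached 4 thousandths. A step of 1 thousandth at those lowest ratios spans 0.49, 0.74 and 0.36 on the log2 scale, so differences of that size between the lowest groups are within rounding. Signal over background was not analysed here, and binding of the probes to RNA of related small heat shock protein genes was not tested.

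**Figure D1:**
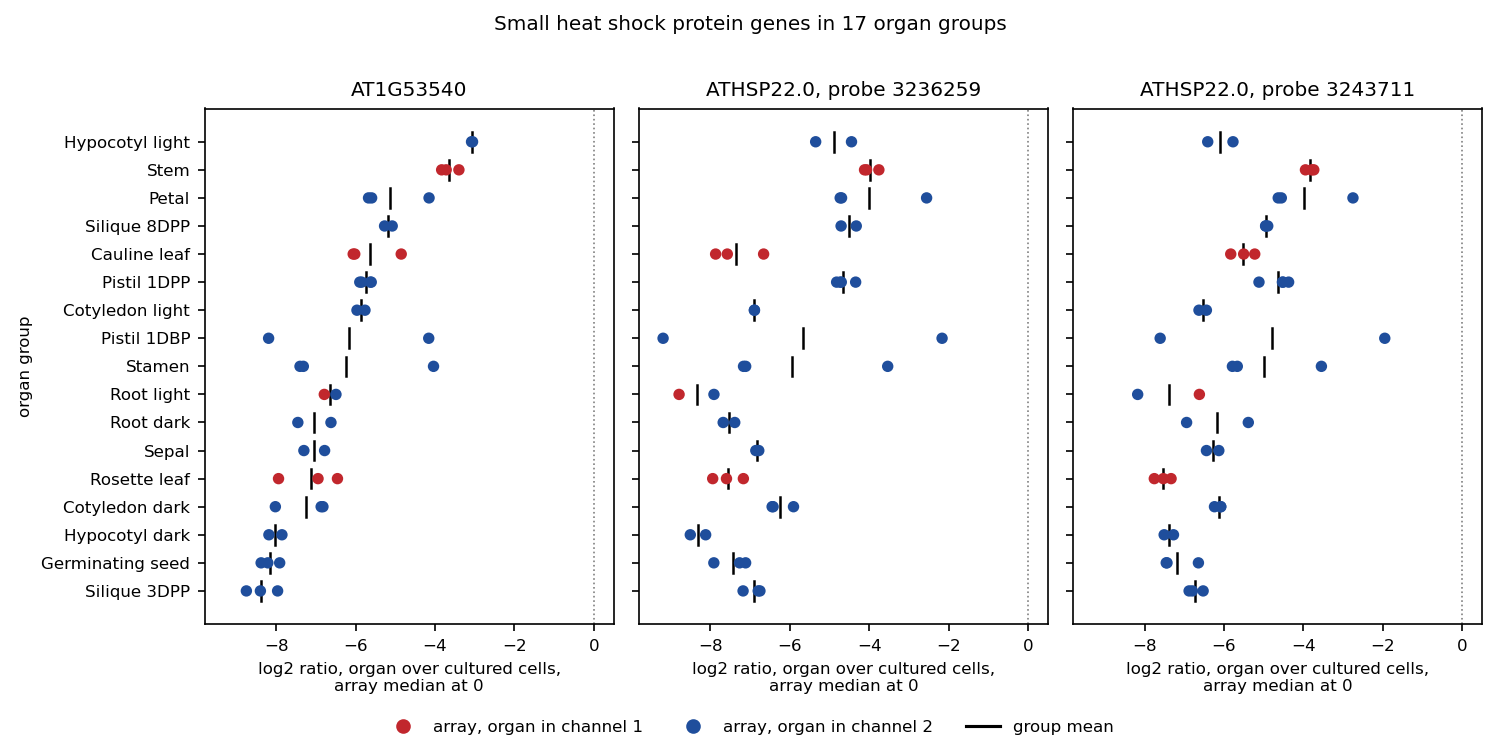
Log2 ratio of organ over cultured cells (x axis, array median at 0) in the 17 organ groups (y axis), for AT1G53540 and the 2 probes of ATHSP22.0. Points are arrays, coloured by the channel that held the organ, and black bars are group means; all points lie left of 0, and 1 array each of 1DBP pistil, stamen and petal lies well to the right of its group mates.

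For AT1G53540 the lowest group was the 3DPP silique, at -8.40, -7.97 and -8.75 on its 3 arrays. Germinating seed followed, at -8.21, -8.38 and -7.91, and then dark hypocotyl, at -8.18 and -7.86. The arrays of these 3 groups overlapped. Above them came dark cotyledon (mean -7.24), rosette leaf (-7.12), sepal (-7.04), dark root (-7.04), light root (-6.64), stamen (-6.25), 1DBP pistil (-6.18), light cotyledon (-5.87), 1DPP pistil (-5.75), cauline leaf (-5.65), 8DPP silique (-5.17) and petal (-5.14). The 2 highest groups were stem, at -3.40, -3.83 and -3.72, and light hypocotyl, at -3.06 and -3.08, and these arrays lay above those of all other groups. The SE of a group mean was 0.41 to 0.58.

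ATHSP22.0, measured by its first probe, was lowest in light root, at -7.91 and -8.79, and in dark hypocotyl, at -8.51 and -8.12. Rosette leaf (-7.57), dark root (-7.53), germinating seed (-7.43), cauline leaf (-7.37), 3DPP silique (-6.91), light cotyledon (-6.89), sepal (-6.82), dark cotyledon (-6.26), stamen (-5.94), 1DBP pistil (-5.68), light hypocotyl (-4.90), 1DPP pistil (-4.65) and 8DPP silique (-4.52) followed. Petal (-3.99) and stem (-3.98) were highest. The stem arrays stood at -4.12, -4.07 and -3.76, close together, whereas the petal mean joined 2 arrays at -4.70 and -4.73 with 1 at -2.55. The SE of these means was 0.57 to 0.80.

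The second probe of ATHSP22.0 placed the same organs at both ends. Rosette leaf was lowest, at -7.53, -7.33 and -7.75, followed by light root (-7.40), dark hypocotyl (-7.39) and germinating seed (-7.18). The 1DPP pistil (-4.63), petal (-3.98) and stem (-3.83) were highest, and the stem arrays stood at -3.95, -3.79 and -3.74. The other 10 groups ran from -6.73 in 3DPP silique to -4.78 in 1DBP pistil, with an SE of 0.45 to 0.63 over all groups.

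Most neighbours in these orders could not be separated. None of the 16 steps from one group to the next was called for any of the 3 probes, and the arrays of neighbouring groups overlapped in 14, 13 and 15 steps. The largest step for AT1G53540, from petal to stem, was 1.49 (adjusted p = 0.07), and the largest for the ATHSP22.0 probes were 0.78 and 0.65. Some groups further apart did differ. Of all pairs of the 17 organ groups, AT1G53540 was called in 48 (35.3%), the first ATHSP22.0 probe in 32 (23.5%) and the second in 34 (25.0%), against 27.8% of all tests over these pairs. Within the 81 pairs with the organ in the same channels the counts were 29, 14 and 15, and 24.6% of all tests over those pairs were called. In both sets of pairs the ATHSP22.0 probes were called less often than all tests, and AT1G53540 more often.

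In 17 pairs all 3 probes were called in the same direction. No such count was made for other sets of 3 probes, so this number and that of pairs without a call have no background. Stem was the higher organ in 8 of them, against light cotyledon, germinating seed, dark hypocotyl, dark root, light root, rosette leaf, sepal and 3DPP silique. In 7 of these 8 the organs did not lie in the same channel on all arrays, so dye and organ cannot be told apart in the group means. Rosette leaf is the exception. Light root array p1 also held the organ in the channel of stem. It stood at -6.79 for AT1G53540 and at -8.79 and -6.62 for ATHSP22.0, below every stem array. Over all 16 pairs with stem, AT1G53540 was called higher in stem in 13 and the ATHSP22.0 probes in 9 and 10, and none was called lower, while 20.7% of all tests over these pairs were called higher in stem. Germinating seed and dark hypocotyl were each lower than petal, 1DPP pistil and 8DPP silique as well. Petal was also higher than rosette leaf and 3DPP silique, and 8DPP silique higher than rosette leaf. In 8 of the 17 pairs the organ lay in the same channel on all arrays. In 71 pairs no probe was called. In the pair of light hypocotyl and petal, AT1G53540 was higher in hypocotyl, by 2.07 ± 0.75 (adjusted p = 0.026), and the second ATHSP22.0 probe higher in petal, with a hypocotyl minus petal difference of -2.11 ± 0.82 (adjusted p = 0.036); the first ATHSP22.0 probe was not called (-0.90 ± 1.04, adjusted p = 0.51).

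Stem stood apart from the leaves, which were labelled in the same channel. The rosette leaf arrays of AT1G53540 were at -7.94, -6.46 and -6.95, below every stem array, and the difference of rosette leaf minus stem was -3.47 ± 0.67 (adjusted p = 2.0e-04). For ATHSP22.0 it was -3.59 ± 0.93 by the first probe (adjusted p = 0.004) and -3.71 ± 0.73 by the second (adjusted p = 2.2e-04). In this comparison 19.5% of all probes were called. Cauline leaf, the leaf type borne on the stem, lay below stem by AT1G53540 (cauline minus stem -2.00 ± 0.67, adjusted p = 0.049) and by the first ATHSP22.0 probe (-3.39 ± 0.93, adjusted p = 0.013), but the second probe was not called (-1.69 ± 0.73, adjusted p = 0.14), in a comparison with 10.4% of probes called.

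The cauline leaf is where the ATHSP22.0 probes differed most from each other. Its arrays stood at -6.66, -7.57 and -7.87 by the first probe and at -5.83, -5.50 and -5.22 by the second. Against rosette leaf the first probe overlapped (cauline minus rosette 0.20 ± 0.93, adjusted p = 0.95) while the second did not (2.02 ± 0.73, adjusted p = 0.12). AT1G53540 did not overlap either (1.47 ± 0.67, adjusted p = 0.25). None of the 3 was called, against 4.11% of all probes.

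Across the 17 group means the ATHSP22.0 probes correlated at r = 0.875, and AT1G53540 correlated with them at 0.738 and 0.65. These are descriptions over groups that share the reference and the array medians. The values of the ATHSP22.0 probes on the same array differed by a median of 0.38 and by up to 2.64.

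Along the pistil and silique stages, all of which had the organ in channel 2, both genes had their lowest mean in the 3DPP silique. For ATHSP22.0 this rests on array 3 of the 1DBP pistil, since array 2 alone lay below every 3DPP array. In the 1DPP pistil AT1G53540 stood at -5.63, -5.61, -5.85 and -5.90. In the 3DPP silique it stood at -8.40, -7.97 and -8.75, below every 1DPP array. In the 8DPP silique it was back at -5.08 and -5.27, above every 3DPP array, with no value on the third array. AT1G53540 thus fell by 2.63 ± 0.63 from 1DPP to 3DPP, a 6.18-fold decrease (adjusted p = 0.014), and rose by 3.20 ± 0.75 from 3DPP to 8DPP, a 9.18-fold increase (adjusted p = 0.0034). Of all probes, 2.85% were called in the first of these comparisons and 15.0% in the second. The fall was not called without 3DPP array 1 or array 3, when the difference was -2.61 or -2.44.

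The 3DPP mean was also the lowest of the 4 stages for ATHSP22.0, but neither step passed the test. Its first probe stood at -4.73, -4.70, -4.34 and -4.82 in the 1DPP pistil, at -7.18, -6.80 and -6.75 in the 3DPP silique, and at -4.33 and -4.71 in the 8DPP silique. Its second probe stood at -4.51, -4.37, -4.53 and -5.12, then at -6.53, -6.80 and -6.88, and then at -4.95, -4.90 and -4.95. For both probes no 3DPP array overlapped either neighbouring stage. With so few arrays this was common. Of the 81 pairs of organ groups in the same channels, the ATHSP22.0 probes did not overlap in 49 and 50 and were called in 14 and 15. The share of all probes without overlap was not counted for any comparison here. The 3DPP minus 1DPP difference was -2.26 ± 0.87 by the first probe (adjusted p = 0.17) and -2.10 ± 0.68 by the second (adjusted p = 0.09). The 8DPP minus 3DPP difference was 2.39 ± 1.04 (adjusted p = 0.11) and 1.80 ± 0.73 (adjusted p = 0.087).

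The 1DBP pistil arrays lay far apart for both genes. AT1G53540 stood at -8.19 on array 2 and -4.16 on array 3, the first ATHSP22.0 probe at -9.19 and -2.16, and the second at -7.61 and -1.95. Array 2 thus lay below every 1DPP array and array 3 above them. The mean difference of 1DPP minus 1DBP was 0.43 ± 0.72 for AT1G53540 (adjusted p = 0.91), 1.03 ± 0.98 for the first ATHSP22.0 probe (adjusted p = 0.82) and 0.15 ± 0.78 for the second (adjusted p = 0.98), with 1.08% of all probes called. The 8DPP minus 1DBP differences were 1.00 ± 0.83 (adjusted p = 0.43), 1.16 ± 1.13 (adjusted p = 0.52) and -0.15 ± 0.82 (adjusted p = 0.92), with 18.9% of all probes called. Without 1DBP array 2 the 1DPP minus 1DBP differences were -1.59, -2.48 and -2.68, and without array 3 they were 2.45, 4.54 and 2.98.

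The fit estimates 1 spread per probe over all groups, and the 1DBP arrays supplied 37.9% of the within-group sum of squares of AT1G53540 and 59.8% and 61.1% of those of the ATHSP22.0 probes. With both 1DBP arrays left out, an alternative chosen after seeing the data, the 3DPP minus 1DPP differences kept their sizes and had adjusted p-values of 0.0023 for AT1G53540 and 0.02 and 0.0049 for ATHSP22.0. The 8DPP minus 3DPP differences then had adjusted p-values of 4.7e-04, 0.014 and 0.0082, so all 3 probes were called at both steps. Among the 120 pairs of organ groups without the 1DBP pistil, the probes were called in 45, 32 and 30 with the 1DBP arrays in the fit and in 58, 56 and 53 without them, while the share over all probes was 28.4% and 28.3%. The group left out is the one with the widest spread for these probes, and the differences themselves cannot change. Smaller p-values and more calls for these probes were therefore built in and are no separate evidence.

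**Figure D2:**
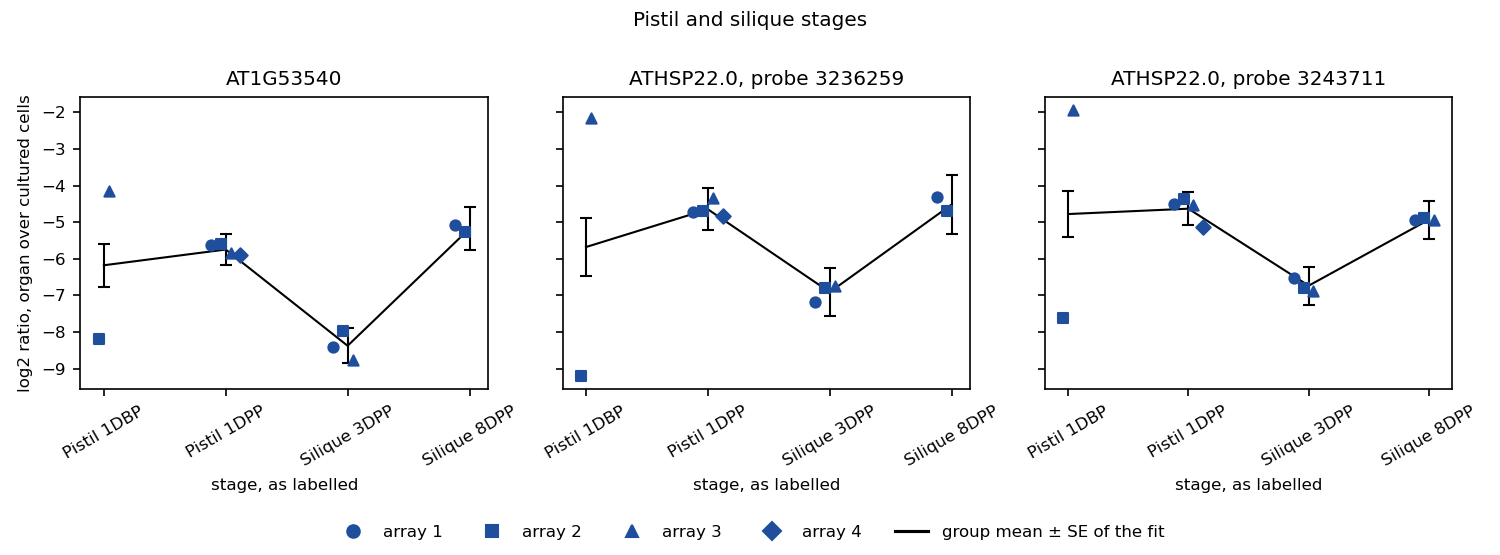
Log2 ratio of organ over cultured cells (y axis) in the 4 pistil and silique stages (x axis, as labelled), with each array as a point, its shape giving the array number, and group means ± SE of the fit as a line. The 3DPP arrays lie below all 1DPP and 8DPP arrays for all 3 probes. The 1DBP arrays span the whole range for both ATHSP22.0 probes, while for AT1G53540 3DPP arrays 1 and 3 lie below both of them.

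Silique 8DPP, which holds seeds in development, and germinating seed stood well apart. The first ATHSP22.0 probe was at -7.11, -7.27 and -7.91 in germinating seed, and the second at -7.44, -6.64 and -7.45, all below the 8DPP arrays. Germinating seed minus 8DPP silique was -2.99 ± 0.75 for AT1G53540 (adjusted p = 0.0016), -2.91 ± 1.04 for the first ATHSP22.0 probe (adjusted p = 0.021) and -2.25 ± 0.73 for the second (adjusted p = 0.012). All 3 were called lower in germinating seed, in a comparison that called 41.9% of all probes.

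The wide spread of the 1DBP pistil recurred, less strongly, in stamen and petal. In stamen AT1G53540 stood at -7.40, -7.32 and -4.04, the first ATHSP22.0 probe at -7.11, -7.17 and -3.53, and the second at -5.66, -5.79 and -3.55. In petal the values were -5.67, -5.60 and -4.15, then -4.70, -4.73 and -2.55, and then -4.63, -4.56 and -2.75. In each group array 3 held the highest value of every probe. Petal lay above sepal for all 3 probes with no overlap, by 1.90 ± 0.75, 2.83 ± 1.04 and 2.31 ± 0.82, but none was called (adjusted p = 0.12, 0.088 and 0.076) where 7.39% of all probes were. Petal minus stamen was 1.11, 1.94 and 1.02, with overlapping arrays and no call (adjusted p = 0.41, 0.25 and 0.51), where 5.86% of all probes were called.

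Set against the mean of the other arrays of its group, array 3 of the 1DBP pistil was higher by 4.03 for AT1G53540 and by 7.03 and 5.66 for ATHSP22.0. Of 24573 probes, 0.549%, 0.00407% and 0.102% rose at least as much between these arrays, so the first ATHSP22.0 probe had the largest rise of all. The arrays themselves correlated at 0.858. On array 3 of stamen the rises were 3.32, 3.61 and 2.18, reached by 0.66%, 0.482% and 2.52% of probes, and on array 3 of petal 1.49, 2.16 and 1.84, reached by 13.1%, 6.52% and 9.07%. Over the 21053 probes measured on all these arrays, 137 (0.651%) were at least 1 higher on all 3. They included 10 named probes, of which 3 were the probes described here. These arrays were set apart because the 3 probes were highest on them. The shares and the count are therefore descriptions and no separate evidence. Array 3 of petal also matched its group mates less well, at a mean r of 0.671 against 0.792 and 0.789 for arrays 1 and 2. For stamen these were 0.849 against 0.894 and 0.894. The interquartile range of all values was narrower on array 3 in each group. It was 1.875 in petal against 2.467 and 2.474, 2.044 in stamen against 2.465 and 2.53, and 1.987 in 1DBP pistil against 2.158. The part of this narrower range in the rises was not tested.

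Markers and chaperones moved on these arrays as follows. VGD1, a pollen pectin methylesterase gene, was higher on array 3 by 1.06 in 1DBP pistil, 1.68 in stamen and 3.77 in petal. ACT12, a pollen actin gene, was higher by 2.72 in stamen and 2.10 in petal and lacked a value on 1 of the 1DBP arrays, and TUA1, a pollen tubulin gene, differed by -0.07, -0.15 and 1.26. Among the other markers, the root gene AT4G30170 was also higher, by 0.74, 1.23 and 0.97, and AT5G17820 differed by 0.77, -0.32 and -0.01. LHB1B2 differed by -1.07, -0.73 and -1.43, BAN by -0.14, -0.69 and -0.93, and INO by -0.68, 0.16 and 0.10. AT3G09440, of the HSP70 list, was higher by 0.59, 0.42 and 0.47, and the co-chaperone gene Hop1 differed by -0.29, -0.12 and 2.27. The part of pollen, of handling or of a stress in the plants in these values was not tested.

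**Figure D3:**
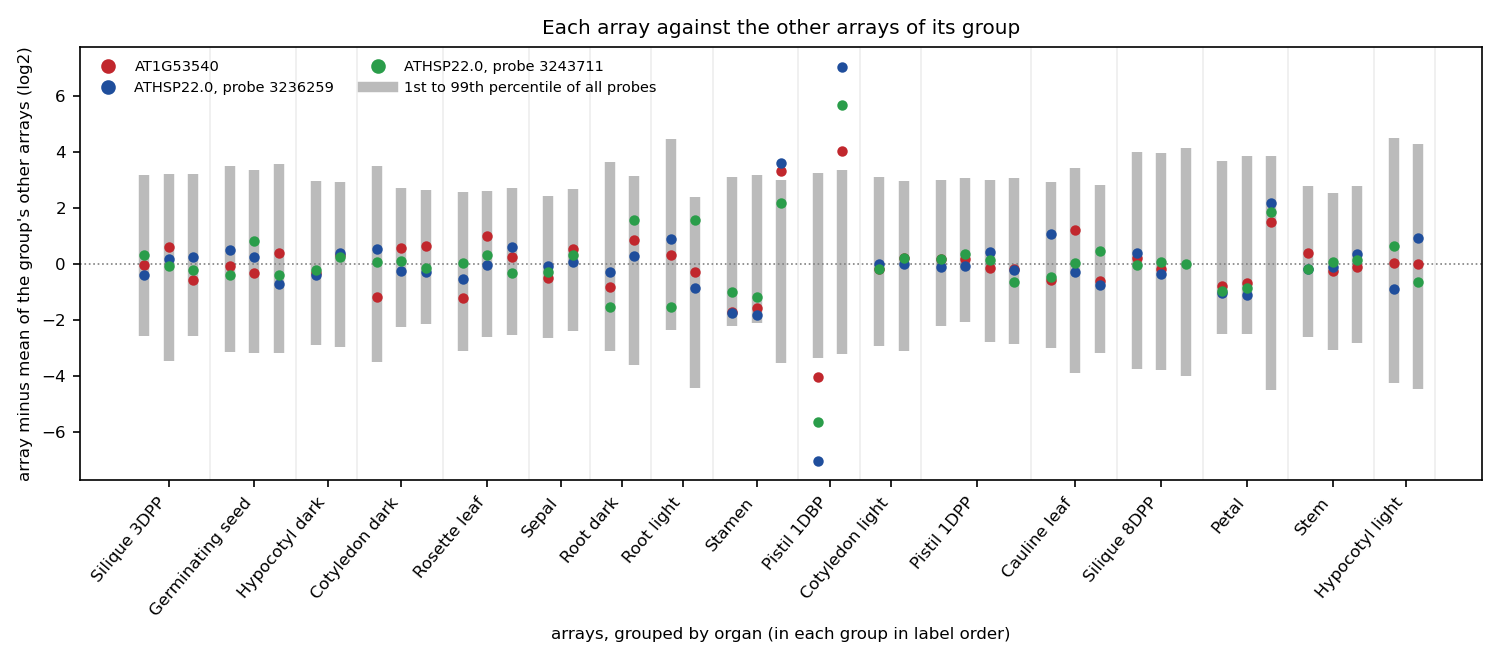
Difference of each array from the mean of the other arrays of its group (y axis, log2) for the 3 probes, over the 17 organ groups (x axis). Grey bars span the 1st to 99th percentile of all probes on that array; on the 1DBP pistil arrays all 3 probes lie outside the bar, on stamen array 3 AT1G53540 and the first ATHSP22.0 probe do, and on petal array 3 none does.

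Light and dark organs were compared in 2 ways, through the cultured cells and on the direct arrays. In hypocotyl, measured through cultured cells, both genes were higher in light. AT1G53540 stood at -3.06 and -3.08 in light and at -8.18 and -7.86 in the dark, with no overlap. The difference of light minus dark was 4.95 ± 0.83, a 31.0-fold increase (adjusted p = 1.9e-05). ATHSP22.0 stood at -5.35 and -4.45 in light and at -8.51 and -8.12 in the dark by its first probe, a rise of 3.42 ± 1.13 or 10.7-fold (adjusted p = 0.016). This rise was not called without light array 2 or either dark array (2.96 to 3.61). By its second probe ATHSP22.0 stood at -5.77 and -6.41 in light and at -7.51 and -7.27 in the dark, and the difference of 1.30 ± 0.90 was not called (adjusted p = 0.25). This comparison called 37.4% of the 14017 probes tested.

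The direct hypocotyl arrays did not show this rise. As deposited, AT1G53540 stood at -1.19 and -0.91 (mean -1.05 ± 0.58, adjusted p = 0.21), the first ATHSP22.0 probe at -1.30 and 0.12 (-0.59 ± 0.80, adjusted p = 0.67) and the second at -0.38 and -0.55 (-0.47 ± 0.63, adjusted p = 0.67), with 16.7% of all probes called. The direction of these arrays is not settled: over 22757 probes their mean correlated at -0.076 with light minus dark through cultured cells, where the cotyledon and root arrays gave 0.536 and 0.492. The light organ was in channel 2 on the direct hypocotyl arrays and in channel 1 on the direct cotyledon and root arrays. Dye and organ therefore cannot be told apart between them. The 2 direct arrays of hypocotyl correlated with each other at 0.634. For AT1G53540 the difference through cultured cells exceeded the direct value by 6.00 ± 1.01 as deposited and by 3.90 ± 1.01 with the sign turned, so the measurements differed at either sign. Both light hypocotyl arrays held fewer values than any other array except the third 8DPP silique array. The pollen gene ACT12 had a value on 1 of them, at 4.56, while VGD1 and TUA1 had means of -2.34 and 0.22 over both. The part of these arrays' quality in the rise was not tested.

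In cotyledon and root no difference through cultured cells was called for either gene. In cotyledon AT1G53540 stood at -5.97 and -5.76 in light and at -8.02, -6.87 and -6.82 in the dark, with no overlap and a difference of 1.37 ± 0.75 (adjusted p = 0.34). ATHSP22.0 differed by -0.63 ± 1.04 (adjusted p = 0.86) and -0.40 ± 0.82 (adjusted p = 0.89). Here 8.08% of all probes were called. On the direct cotyledon arrays, AT1G53540 stood at -0.19 and 0.44 (0.12 ± 0.58, adjusted p = 0.95). The first ATHSP22.0 probe stood at -1.89 and -2.90 and was called lower in light, at -2.39 ± 0.80 (adjusted p = 0.04). That call was lost with either direct array left out. The second ATHSP22.0 probe stood at -0.91 and -1.12 and was not called (-1.02 ± 0.63, adjusted p = 0.35), with 11.4% of all probes called.

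In root the light minus dark differences through cultured cells were 0.40 ± 0.83 (adjusted p = 0.85), -0.82 ± 1.13 (adjusted p = 0.76) and -1.23 ± 0.90 (adjusted p = 0.48), with 6.21% of all probes called. The light root arrays n1 and p1, which held the organ in opposite channels and correlated at 0.75 over all probes, stood at -6.50 and -6.79 for AT1G53540, at -7.91 and -8.79 for the first ATHSP22.0 probe and at -8.17 and -6.62 for the second. Both carry the number 1, and whether they came from separate RNA is not given by the labels. The direct root arrays gave 0.25 ± 0.58 (adjusted p = 0.84), -0.61 ± 0.80 (adjusted p = 0.69) and -0.38 ± 0.63 (adjusted p = 0.76), with 9.12% of all probes called.

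The light response of hypocotyl was also tested against those of the other organs. For AT1G53540 it exceeded that of cotyledon by 3.58 ± 1.12 (adjusted p = 0.016) and that of root by 4.56 ± 1.17 (adjusted p = 0.008). The AT1G53540 excess over cotyledon was not called without dark hypocotyl array 1 (3.42) or with scaling between arrays (2.44, adjusted p = 0.09). Its excess over root was not called when only the arrays compared were fitted (adjusted p = 0.058). For the first ATHSP22.0 probe the excess was 4.05 ± 1.54 over cotyledon (adjusted p = 0.047) and 4.23 ± 1.60 over root (adjusted p = 0.072). Its excess over cotyledon was not called with any 1 of its arrays left out (3.60 to 4.50). For the second probe the excess was 1.70 ± 1.21 (adjusted p = 0.31) and 2.53 ± 1.27 (adjusted p = 0.19). These comparisons called 27.6% and 14.2% of all probes. The responses of cotyledon and root differed by 0.98 ± 1.12, 0.18 ± 1.54 and 0.83 ± 1.21 (adjusted p = 0.69, 0.97 and 0.76), with 6.38% called. All of these rest on the light hypocotyl or light root arrays described above.

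**Figure D4:**
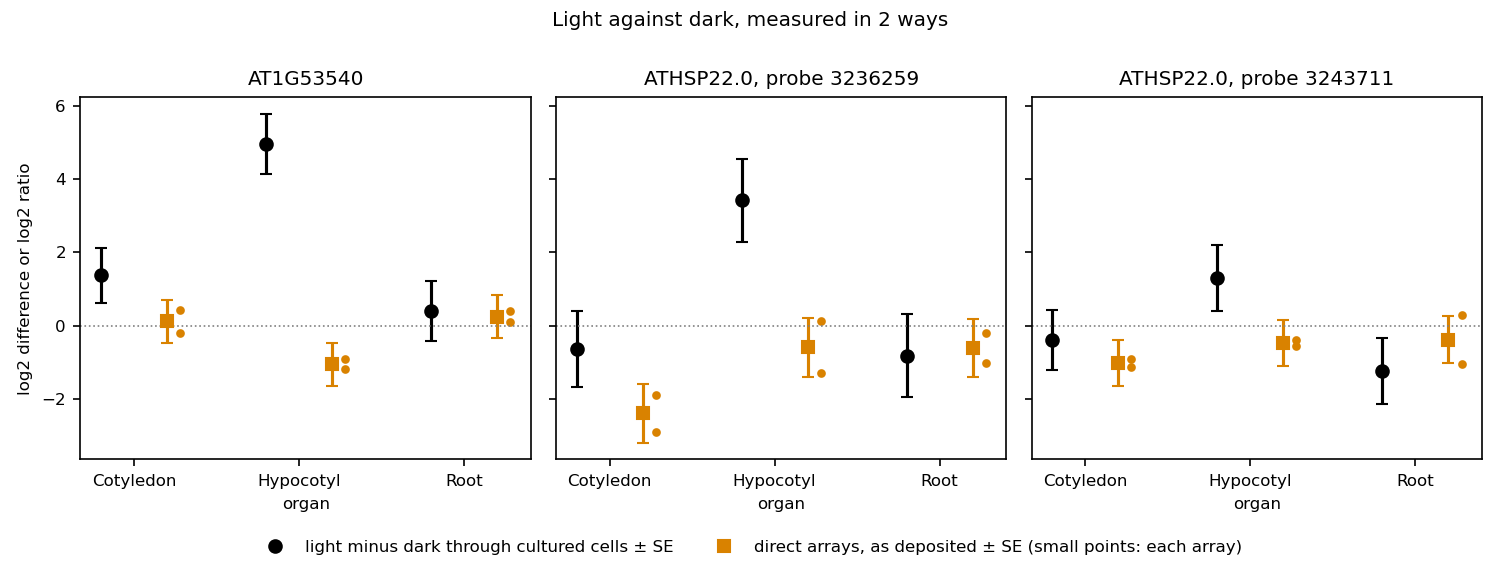
Light minus dark through cultured cells (black circles ± SE) and the direct light arrays as deposited (orange squares ± SE, with each array as a small point) on the log2 scale (y axis) for 3 organs (x axis). For AT1G53540 in hypocotyl the measurements lie at 4.95 and -1.05, or 1.05 with the sign of the direct arrays turned. For the second ATHSP22.0 probe the hypocotyl gap and for the first the cotyledon gap are both 1.76 as deposited.

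Of 96 genes on 6 lists of heat stress and chaperone genes, 4 were measured. They were 2 of 18 small heat shock protein genes, which are the genes described here, 1 of 17 HSP70 genes (AT3G09440), and 1 of 24 co-chaperone, chaperonin and folding genes (Hop1, which links HSP70 to HSP90). None of the 11 HSP90 and HSP100 genes, 21 heat shock factor genes and 5 other heat-responsive genes had a named probe here. AT3G09440 was called lower than cultured cells in 14 of 17 groups and higher in 0, from -3.84 ± 0.29 in dark hypocotyl to 0.08 ± 0.23 in stem. Hop1 was called lower in 11 groups and higher in 1, from -2.76 ± 0.40 in light hypocotyl to 1.01 ± 0.40 in 8DPP silique. Both lay closer to cultured cells than the small heat shock protein genes in every group. In light hypocotyl the gap was small for Hop1, at -2.76, beside AT1G53540, at -3.07.

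Both genes were also placed beside the members in the stage and light comparisons. Hop1 rose from 3DPP to 8DPP by 2.16 ± 0.52 (adjusted p = 0.004), alongside AT1G53540, and AT3G09440 did not pass the test (0.53 ± 0.37, adjusted p = 0.35). From 1DPP to 3DPP neither was called, with differences of 0.39 ± 0.31 for AT3G09440 (adjusted p = 0.62) and -0.14 ± 0.43 for Hop1 (adjusted p = 0.94). AT3G09440 rose in light hypocotyl through cultured cells by 3.31 ± 0.40 (adjusted p = 1.8e-07), while the direct arrays, whose direction is not settled, gave -1.44 ± 0.29 as deposited (adjusted p = 3.0e-04) and 1.44 with the sign turned. In cotyledon it rose in light in both measurements, by 1.77 ± 0.37 (adjusted p = 0.0013) and 1.55 ± 0.29 (adjusted p = 1.8e-04), a comparison in which neither small heat shock protein gene was called higher. Neither of these cotyledon rises was called when only the arrays compared were fitted (adjusted p = 0.057 and 0.11), nor the direct one without direct array 2 (1.06, adjusted p = 0.12). The Hop1 rise was not called without 8DPP array 2 (1.86, adjusted p = 0.062).

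**Figure D5:**
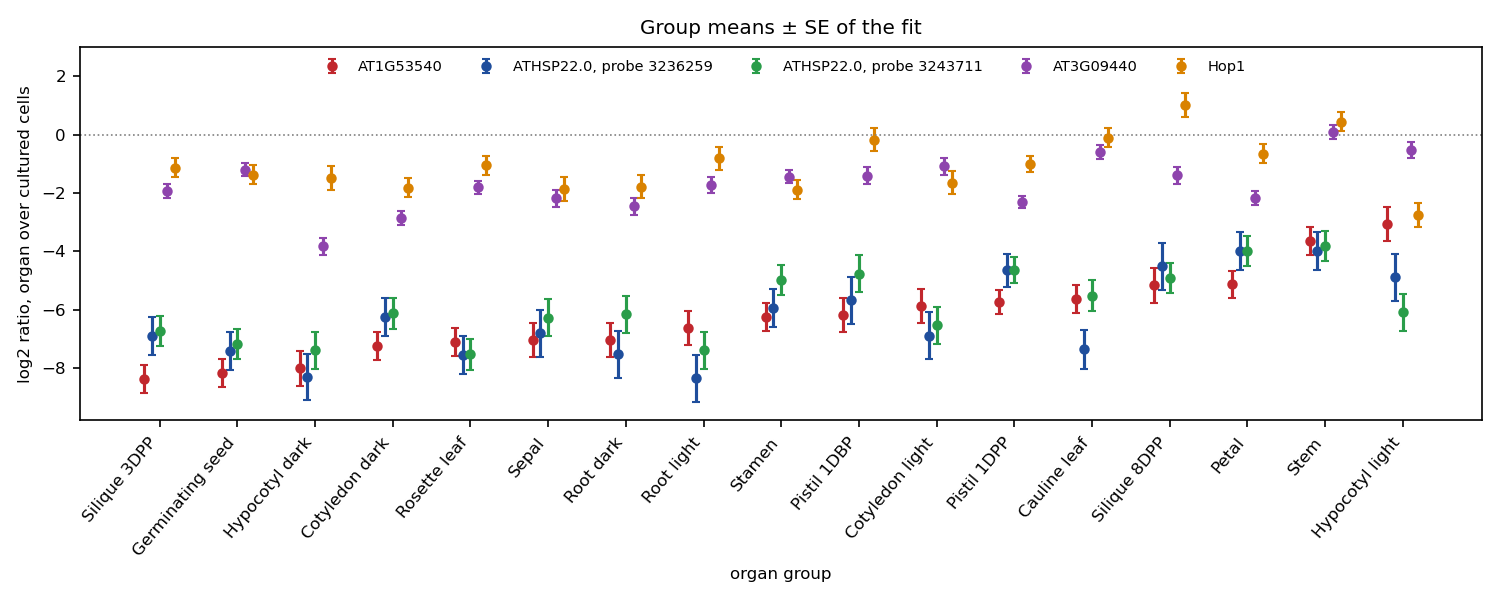
Group means ± SE of the fit (y axis, log2 ratio of organ over cultured cells) in the 17 organ groups (x axis, ordered by AT1G53540) for the 3 small heat shock protein probes, AT3G09440 and Hop1. The 3 probes lie below AT3G09440 in all groups, and AT3G09440 reaches 0.08 in stem.

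Profiles were compared by Pearson's r over the 17 group means with 948 named genes, the members left out. The genes most like AT1G53540 were AT5G35680 (0.796), AT4G28480 (0.771), AT1G79010 (0.739), AT3G09735 (0.726) and AT1G75230 (0.718). For the first ATHSP22.0 probe they were AT3G51090 (0.707), AT1G20370 (0.646), AT1G69570 (0.603), AT2G42910 (0.58) and AT4G08960 (0.571), and for the second AT1G20370 (0.668), AT3G51090 (0.652), AT2G42910 (0.637), AT1G15270 (0.631) and AT5G39730 (0.594). The first and second probes thus shared 3 of 5, and no named gene came as close to either as the other probe did. AT1G53540 itself correlated with the first ATHSP22.0 probe at 0.738, above every gene listed for that probe, and with the second at 0.65. AT3G09440 correlated with AT1G53540 at 0.652 and with the ATHSP22.0 probes at 0.375 and 0.35. Over 14 groups, without petal, stamen and 1DBP pistil, the most alike outside the members were XPO1B for AT1G53540 (0.812, ahead of AT5G35680 at 0.809 and AT4G28480 at 0.808), AT3G51090 for the first ATHSP22.0 probe (0.755) and AT5G20160 for the second (0.647). Over these groups AT1G53540 correlated with the ATHSP22.0 probes at 0.743 and 0.679. AT1G20370 was then no longer among the 5 most alike of either ATHSP22.0 probe. These correlations are descriptions over groups that share the reference, and no p is given.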

How the data were processed

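Per the labels, organ RNA was set against cultured-cell RNA, or light against dark RNA, on two-colour arrays. The authors deposited log2 ratios per probe in 1 table of the series; the sources used here do not give how images were read, background subtracted or ratios normalized. Ratios were read as organ over reference. Control spots of 3 accessions with 17 spots each were averaged. Genes were named from the platform's probe table, through RefSeq identifiers (TAIR10.1, names only), and 197 probes with a genomic-clone or widely shared accession were left unnamed.

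Array medians were subtracted. A model of group means was fitted to the 51 arrays together (limma 3.58.1 variance moderation in R 4.3.3; tables with Python 3.11.15, pandas 2.3.3 and numpy 2.4.6), which gave differences, SEs and two-sided p-values, adjusted by Benjamini-Hochberg over all probes of a comparison with at least 2 values per group. The fit was tested on simulated data. Genes, lists and tests were chosen with earlier results of these data known. Named genes are the members, measured genes of the chaperone lists called in a comparison, and the 5 most alike profiles per probe outside the members. The other named markers and the arrays set apart were chosen after their values were seen. Precision rests on 2 to 4 arrays per group. Same-numbered arrays of the pistil and silique stages and of light and dark cotyledon and hypocotyl did not deviate together (r between -0.065 and 0.078), so their numbers were not used as pairs. Stamen and petal arrays of 1 number did (r = 0.116, 0.142 and 0.25), unlike those of 1DBP pistil with either (-0.008 to 0.026); other groups were compared only for sepal and petal (-0.008 and 0.03). Alternatives are given in the closing section. No sequence was used here.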

Additional observations from a re-analysis of the deposited data

Results flagged for a closer look

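Light minus dark, measured through cultured cells, differed between organs by a test of the difference itself in 5 cases. AT1G53540 rose more in hypocotyl than in cotyledon, by 3.58 ± 1.12 (adjusted p = 0.016), and more than in root, by 4.56 ± 1.17 (adjusted p = 0.008). The first of these AT1G53540 differences was not called without dark hypocotyl array 1 (3.42). The first ATHSP22.0 probe (3236259) differed between hypocotyl and cotyledon by 4.05 ± 1.54 (adjusted p = 0.047). That call was lost with any 1 of its arrays left out (3.60 to 4.50). AT3G09440, of the HSP70 list, rose more in hypocotyl than in cotyledon by 1.54 ± 0.55 (adjusted p = 0.034) and than in root by 2.57 ± 0.57 (adjusted p = 0.0026). The first of these AT3G09440 differences was not called with scaling between arrays (0.96, adjusted p = 0.29), and neither was when only the arrays compared were fitted (adjusted p = 0.053 and 0.14). The first was also lost without either light cotyledon array, dark cotyledon array 1 or any 1 of the hypocotyl arrays (1.33 to 1.66, adjusted p = 0.051 to 0.11). All 5 rest on the light hypocotyl arrays, which held 19267 and 19326 values, and the direct hypocotyl arrays gave -1.05, -0.59 and -1.44 for these probes as deposited and 1.05, 0.59 and 1.44 with the sign turned, which is not settled. No array stood far enough from its group mates to be singled out in the 1 group with at least 4 arrays, the 1DPP pistil, and groups of 2 or 3 arrays were not tested for this.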

How the results depend on the processing

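Both genes were called lower than cultured cells in 17 of 17 groups by all 3 probes with any 1 array left out and, apart from the settings named next, under every setting. Testing probes with a value on every array left 16, 16 and 17 groups, since the 8DPP silique could not be tested for AT1G53540 and the first ATHSP22.0 probe. Fitting only the arrays compared left 16, 15 and 15. Light hypocotyl was then lost for all 3 probes (adjusted p = 0.092), and 1DBP pistil for the ATHSP22.0 probes. With both 1DBP arrays left out, the remaining groups were all called lower. The replicate block was not used to test these levels. Below, the ATHSP22.0 values are of its first probe (3236259) and its second (3243711). With no centring, the second probe's 3DPP minus 1DPP difference was -2.50 and the 8DPP minus 3DPP differences 3.08 and 2.52, all called; the hypocotyl minus root light responses were 4.98 and 3.28, called; AT1G53540 was called on the direct hypocotyl arrays at -1.64; and the signs turned for the second probe from 1DBP to 8DPP (0.48), AT1G53540 on the direct cotyledon arrays (-0.055), AT3G09440 from 1DPP to 3DPP (-0.0015) and Hop1 on the direct root arrays (-0.17). Centring on named probes turned AT1G53540 on the direct cotyledon arrays (-0.072) and Hop1 on the direct root arrays (-0.16) and lost the first probe's hypocotyl minus cotyledon response (3.89, adjusted p = 0.061). Scaling between arrays lost the first probe's rise in light hypocotyl (2.40, adjusted p = 0.073) and the hypocotyl minus cotyledon responses of AT1G53540 (2.44) and the first probe (3.02), called AT1G53540 on the direct hypocotyl arrays (-1.59) and the second probe on the direct cotyledon arrays (-1.92), and turned AT3G09440 from 1DBP to 8DPP (-0.034). Fitting only the arrays compared called the ATHSP22.0 probes from 1DPP to 3DPP (-2.26 and -2.10) and from 3DPP to 8DPP (2.39 and 1.80) and the second probe's hypocotyl minus cotyledon response (1.70), and lost the first probe on the direct cotyledon arrays (-2.39) and the hypocotyl minus root response of AT1G53540 (4.56). Leaving out both 1DBP arrays, chosen after seeing the data, called the same 4 stage differences (-2.26, -2.10, 2.39 and 1.80) and the hypocotyl minus root responses of the ATHSP22.0 probes (4.23 and 2.53). That setting removed the widest spread of these probes, so its added calls were built in and are no separate evidence. With the replicate number as a block, which the arrays' deviations did not bear out as pairs, AT1G53540 was no longer called from 1DPP to 3DPP (-2.68, adjusted p = 0.3), from 3DPP to 8DPP (3.45, adjusted p = 0.065) or in light hypocotyl (4.95, adjusted p = 0.13), nor was the first probe in light hypocotyl (3.42, adjusted p = 0.13). The block changed no call of petal minus stamen, whose numbers do pair (adjusted p = 0.33, 0.18 and 0.18). AT3G09440 was not called with the block in light cotyledon (1.63, adjusted p = 0.26) or light hypocotyl (3.31, adjusted p = 0.13). When only the arrays compared were fitted it was not called on the direct hypocotyl arrays (adjusted p = 0.075) or in either cotyledon measurement, nor was Hop1 from 3DPP to 8DPP (adjusted p = 0.054). Leaving out 1 array moved AT1G53540 from 1DPP to 3DPP between -2.83 and -2.44, from 1DBP to 1DPP between -1.59 and 2.45, from 1DBP to 8DPP between -1.02 and 3.02, in light root between -0.021 and 0.81, on the direct cotyledon arrays between -0.19 and 0.44 and in the hypocotyl minus cotyledon response between 3.37 and 3.97. It moved the first ATHSP22.0 probe between -2.48 and 4.54 from 1DBP to 1DPP, -2.35 and 4.68 from 1DBP to 8DPP, 2.96 and 3.87 in light hypocotyl, -2.90 and -1.89 on the direct cotyledon arrays, -1.30 and 0.12 on the direct hypocotyl arrays, 3.60 and 4.50 in the hypocotyl minus cotyledon response, and -0.26 and 0.62 in the cotyledon minus root response. The first probe's call in the hypocotyl minus cotyledon response was lost with any 1 of its arrays left out. On the direct cotyledon arrays its call was lost without either array, and in light hypocotyl without light array 2 or either dark array. Leaving out 1 array moved the second probe between -2.68 and 2.98 from 1DBP to 1DPP, -2.98 and 2.68 from 1DBP to 8DPP, and -1.04 and 0.28 on the direct root arrays. It moved AT3G09440 from 1DBP to 8DPP between -0.28 and 0.31, and Hop1 between -0.19 and 0.13 on the direct hypocotyl arrays and between -0.43 and 0.48 on the direct root arrays. The number of pairs of organ groups called ran from 27 to 68 for the first ATHSP22.0 probe and from 30 to 67 for the second; both counts were above 1.5 times the full ones only without 1DBP array 2 (68 and 67) or array 3 (64 and 59). Averaging the light root arrays, leaving out the lowest ratio and dropping the minimum fold changed no call of the 3 probes in the level, stage and light comparisons. The lowest ratio was 1 thousandth, which none of the 3 probes reached, so leaving it out removed none of their values and does not test their low ratios. The cause of the other changes was not tested. The planned promoter motif count was not run, since no sequence was used here.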
